A study of Mus musculus with 3 samples.

Results

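miR-22 is a microRNA (miRNA) whose hairpin precursor gives rise to a pair of mature strands, mmu-miR-22-3p and mmu-miR-22-5p, and both were followed here through the first days of muscle injury. Both members were selected by name, after the read counts of these same libraries had shown miR-22 to be abundant, and together they are 2 of the 1138 mature miRNAs listed. Their reads, their share of each library, their rank, the ratio of the arms and the deposited expression values therefore describe what the choice rested on, and no test was made on them.

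Small RNAs of 18 to 30 nucleotides were sequenced from tibialis anterior muscle, in the front of the lower leg, of wild type C57BL/6 mice aged 10 weeks. The 3 groups were day 0, which the study calls uninjured, and day 1 and day 3 after an injection of cardiotoxin, a snake venom toxin that destroys myofibers and sets off regeneration. The study's methods name saline as the control injection, without saying whether the day 0 muscles of these libraries received it. RNA of 4 samples went into a single library per group, so the spread between mice could not be measured, and every interval below covers counting error of the reads only.

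An miRNA guides Argonaute proteins to messenger RNAs, mainly through pairing of its seed, bases 2 to 8, and lowers their translation and stability. Of the pair cut from a hairpin, one strand is usually kept and the other is mostly degraded. miR-22 is highly expressed in heart and skeletal muscle. Its 3p strand is known for a part in cardiac hypertrophy and muscle differentiation, with Hdac4, a histone deacetylase, and Sirt1, a protein deacetylase, among its described targets.

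The mature sequences are shown because the seed is what sets one arm apart from the other. They are the RefSeq sequences on GRCm38.p6, written 5′ to 3′ with the seed in capitals.
miR-22-3p: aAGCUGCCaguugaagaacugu
miR-22-5p: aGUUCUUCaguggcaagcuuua
Both arms are 22 nucleotides long and begin with A, and 10 bases of miR-22-3p and 9 of miR-22-5p are G or C. A messenger RNA would carry GGCAGCU opposite the seed of miR-22-3p and GAAGAAC opposite that of miR-22-5p. RefSeq sequences were matched by name for 953 of the 1138 listed miRNAs, and 0 others of these shared a seed with either arm.

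The hairpin is shown because both arms come from this one molecule, with miR-22-5p as the first and miR-22-3p as the second run of capitals.
Mir22 hairpin: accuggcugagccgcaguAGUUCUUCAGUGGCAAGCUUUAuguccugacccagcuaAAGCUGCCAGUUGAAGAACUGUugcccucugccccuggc
Mir22 lies on the plus strand at chr11:75463716-75463810 of GRCm38.p6 and is 95 nucleotides long. The 5p arm covers chr11:75463734-75463755 and the 3p arm chr11:75463772-75463793. In the GENCODE M21 annotation of GRCm38, the whole hairpin lies within exon 2 of both transcripts of the noncoding host gene Mir22hg, and also within exon 2 of 1 transcript of the protein-coding gene Tlcd2 on the same strand. Each mature sequence was found in 1 hairpin of the RefSeq table. In the structure predicted by RNAfold, of -41.9 kcal per mol, 19 of the 22 bases of miR-22-5p paired with miR-22-3p. All 7 seed bases of miR-22-5p paired with bases 13 to 19 of miR-22-3p, and all 7 seed bases of miR-22-3p paired within bases 12 to 19 of miR-22-5p.

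The day 0, 1 and 3 libraries held 8507580, 6421056 and 9795076 reads. Levels are given as CPM, counts per 1000000 reads of the library. A read stands for a whole mature miRNA, so no scaling by length was made. All 7 listed miRNAs known from skeletal and cardiac muscle had reads in each library. So did 784, 915 and 987 of the 1138 miRNAs on days 0, 1 and 3, so detection alone could not check the label of the tissue. Together the 7 took 27.4%, 9.17% and 27.8% of the reads. miR-208b-3p, which is linked to slow and cardiac myosin, was close to absent with 4, 1 and 10 reads.

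miR-22-3p was among the most abundant miRNAs of the muscle throughout. The uninjured muscle gave 1794852 reads of it, the day 1 library 831027 and the day 3 library 980438. Scaled to the library total, this was 210971 CPM before injury (95% interval 210697 to 211245), 129422 CPM a day later (129163 to 129682) and 100095 CPM in the day 3 library (99907 to 100283). It thus made up 21.1% of all miRNA reads of the uninjured muscle and was lower in both injured libraries, at 12.9% on day 1 and 10.0% on day 3.

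miR-22-5p was a much rarer miRNA and was not abundant in any library. It had 1493 reads before injury, 720 a day later and 894 in the day 3 library. In CPM its level was 175.5 in uninjured muscle (95% interval 166.8 to 184.6), 112.1 a day after cardiotoxin (104.2 to 120.6) and 91.3 in the day 3 library (85.5 to 97.5). The 5p arm was highest in the uninjured library, as the 3p arm was. It took 0.0175%, 0.0112% and 0.00913% of the reads, so the description as abundant holds for miR-22-3p alone.

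**Figure D1:**
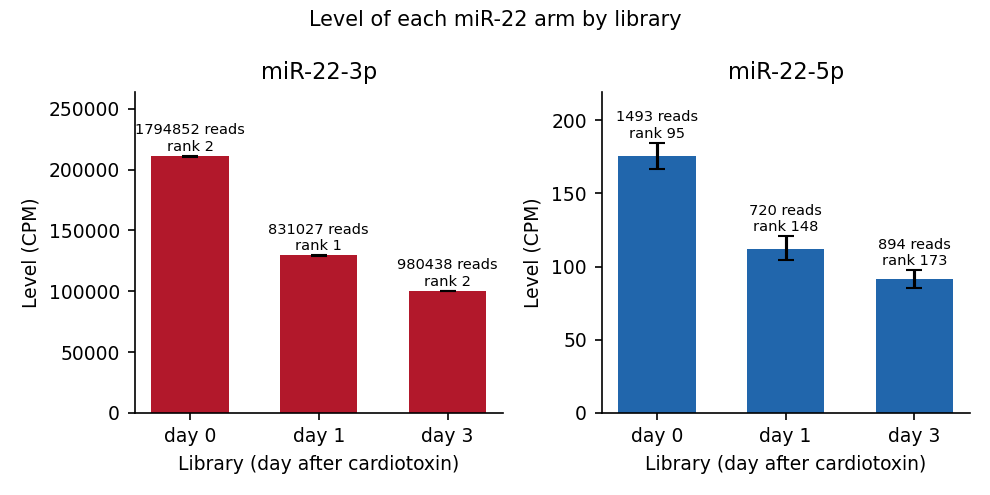
Level of miR-22-3p (left) and miR-22-5p (right) in CPM in the library of each day, on axes that start at 0. Bars are single libraries of 4 pooled samples, error bars are 95% Wilson intervals for counting error, and the reads and rank stand above each bar. Both arms were highest on day 0, at 210971 and 175.5 CPM. They were lowest on day 3 by CPM, an order of days 1 and 3 that the deposited expression values reversed for miR-22-5p and, without scaling, left at a log2 difference of 0.00 for miR-22-3p.

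By number of reads, miR-22-3p ranked 2, 1 and 2 on the days in turn. On day 0 it stood between miR-1a-3p, the main miRNA of mature myofibers, with 23.4% of the reads and miR-378a-3p, encoded in a gene of energy metabolism, with 9.36%. On day 1 it had 1.012 times the reads of miR-126a-3p (1.009 to 1.015), an endothelial miRNA that came next with 12.8%. That difference is outside counting error but small, and with 1 library per day the order of these 2 miRNAs has no replicate check. On day 3 it stood between miR-206-3p, a muscle miRNA of regenerating fibers, with 18.0% and miR-1a-3p with 8.81%.

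miR-22-5p ranked 95, 148 and 173, out of 784, 915 and 987 miRNAs with at least 1 read. On day 0 it followed miR-484, with 1681 reads and an interval above that of miR-22-5p, and preceded miR-125a-5p, with 1419 reads and an overlapping interval. On the other days its neighbours in rank were not distinguishable from it by counting error. On day 1, miR-450a-5p had 728 reads and miR-125b-1-3p 719, against 720 for miR-22-5p. On day 3, miR-449a-5p had 909 reads and miR-450a-5p 890, against 894.

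Ratios of reads within a library do not depend on how the libraries are scaled. For each read of miR-1a-3p uninjured muscle had 0.903 reads of miR-22-3p (95% interval 0.901 to 0.905), the day 1 library 1.753 (1.746 to 1.759) and the day 3 library 1.136 (1.133 to 1.140). miR-22-3p thus lost less of its share than miR-1a-3p did. For each read of miR-26a-5p, a widely expressed miRNA, there were 3.16, 2.27 and 2.47 reads of miR-22-3p. For each read of miR-126a-3p there were 3.65, 1.012 and 1.75. Relative to both of these, miR-22-3p was highest on day 0 and lowest on day 1. Relative to miR-378a-3p it was level on days 0 and 1 and highest on day 3, with 2.25, 2.26 and 4.50 reads. For each read of miR-206-3p there were 17.0, 27.1 and 0.556. On day 3 miR-22-3p was therefore exceeded by an miRNA that had been far below it in the other libraries.

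**Figure D2:**
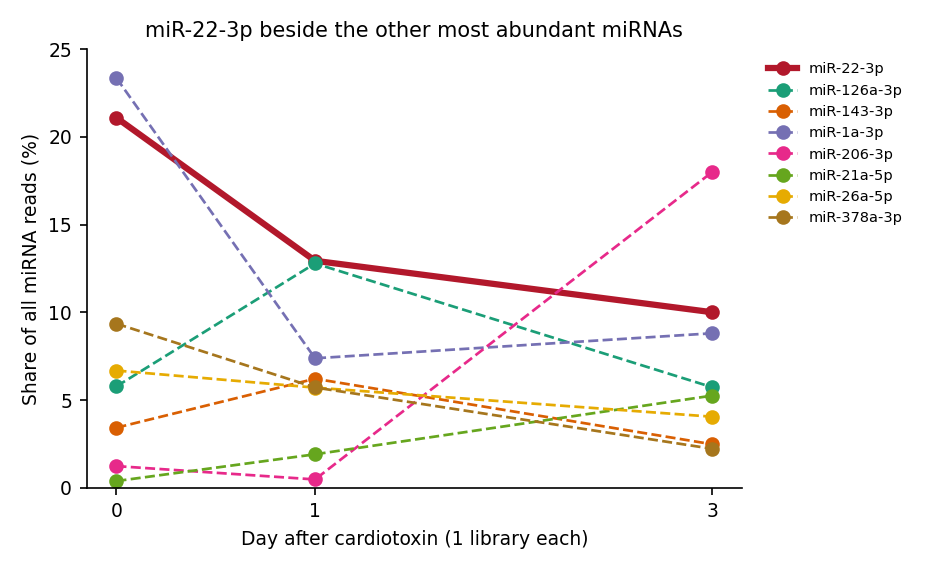
Share of all miRNA reads (%) on days 0, 1 and 3 for miR-22-3p (thick line) and the 7 other miRNAs that were among the 5 with the most reads in at least 1 library (dashed lines). Points are single libraries. miR-22-3p went from 21.1% through 12.9% to 10.0% and stayed among the first 2, while miR-1a-3p led before injury (23.4%) and miR-206-3p in the day 3 library (18.0%).

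On the log2 scale, the level of miR-22-3p on day 1 differed from that on day 0 by -0.70 (95% interval -0.71 to -0.70), which leaves 61.3% of the day 0 level. For miR-22-5p the difference was -0.65 (-0.77 to -0.52), which leaves 63.9%. Both arms were therefore lower on day 1 by a similar factor. On day 3 the difference from day 0 was -1.08 for miR-22-3p (-1.08 to -1.07) and -0.94 for miR-22-5p (-1.06 to -0.82), or 47.4% and 52.0% of the day 0 level. Both comparisons share the day 0 library, so anything particular to that library enters both.

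A fold change of 2, the fold part of the study's threshold, whose false discovery rate part was not applied here, was passed by 0 of the 2 arms on day 1 and by 1 on day 3, miR-22-3p. Over all miRNAs detected in one or both libraries, 8.02% were counted as at least 2-fold lower on day 1 and 7.29% on day 3. miRNAs with at most 3 reads in both libraries stayed in the total but were never counted as changed. This keeps these shares low, here and wherever all detected miRNAs are the comparison. Over the 216 miRNAs with at least 100 reads in each library, these shares were 11.1% and 14.8%. The count depended on the scaling. With edgeR's TMM factors, which shift every miRNA by -0.94 on day 1 and -0.93 on day 3, the changes were -1.65 and -2.00 for miR-22-3p and -1.59 and -1.87 for miR-22-5p, and both arms passed on both days. The shift moves all miRNAs alike, and with it 27.8% of the 216 were at least 2-fold lower on day 1 and 33.3% on day 3, a count added after the values were seen. Other settings ended the call of miR-22-3p on day 3, which was at -0.81 with totals without miR-206-3p and at -0.56 with the expression values described below, taken as a share of their sum.

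Between the injured libraries the differences were smaller. The level on day 3 differed from that on day 1 by -0.37 for miR-22-3p (-0.37 to -0.37) and by -0.30 for miR-22-5p (-0.44 to -0.16) on the log2 scale. Neither arm was 2-fold lower, against 13.0% of the miRNAs detected in one or both libraries and 18.1% of those with at least 100 reads in each. The direction was not the same under every setting. When miR-206-3p was left out of the totals, a setting chosen after the values were seen, the differences were -0.09 and -0.02. Taken from the expression values that the files also hold, as a share of their sum, they were -0.28 for miR-22-3p and 0.02 for miR-22-5p, and without scaling 0.00 and 0.31.

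The position of an miRNA in the order of all changes does not depend on a common scaling either. Among the 215 other miRNAs with at least 100 reads in each library, 35 had a lower log2 change than miR-22-3p on day 1 and 30 on day 3. For miR-22-5p these numbers were 38 and 36. Both arms thus stood in the lower part of the order on both days. The median log2 change over the 216 miRNAs was 0.71 on day 1 and 0.72 on day 3. Relative to this median, miR-22-3p was at -1.41 and -1.80, and miR-22-5p at -1.36 and -1.66. From day 1 to day 3, 79 of the 215 lay below miR-22-3p and 85 below miR-22-5p, which is closer to the middle of the order.

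**Figure D3:**
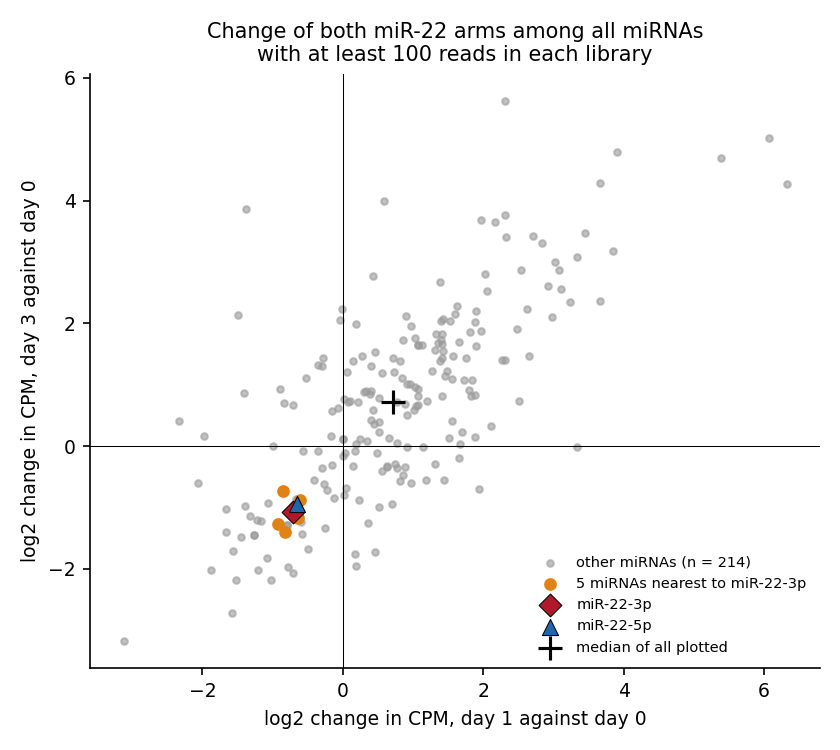
log2 change in CPM on day 1 (x axis) and day 3 (y axis) against the same day 0 library, for 216 miRNAs with at least 100 reads in each library. The diamond is miR-22-3p (-0.70, -1.08) and the triangle miR-22-5p (-0.65, -0.94). Both lie below 0 on both axes and nearly on top of each other, while the cross, the median of all plotted miRNAs, lies at 0.71 and 0.72.

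The miRNAs with the pattern most like each arm were found by distance over the log2 changes of days 1 and 3, across the 3 libraries, and miRNAs that reached 1000 reads in each were the candidates. The other arm was one of the nearest. From miR-22-5p to miR-22-3p the distance was 0.14, second only to miR-3068-5p at 0.08 among 102 candidates, with a median distance of 2.12 over the others. From miR-22-3p, miR-100-5p, of the miR-99 and miR-100 family, was nearest of 101 candidates at 0.11. miR-22-5p, which had fewer than 1000 reads on days 1 and 3, was as near as 0.14. miR-3068-5p followed at 0.22, miR-196a-5p, from the Hox clusters, at 0.30, miR-434-3p, from the imprinted Dlk1-Dio3 region, at 0.35, and miR-7a-1-3p at 0.37. The median candidate lay at 2.22.

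In CPM, miR-100-5p was at 7716, 4958 and 3437 in the libraries of days 0, 1 and 3. miR-3068-5p was at 324.8, 213.0 and 177.2 CPM. Like both arms of miR-22, each was highest on day 0 and lowest on day 3. Their sequences are printed with the seeds in capitals, which differ from those of miR-22. The search used the log2 changes and not the sequence. Since no other listed miRNA with a matched sequence shared a seed with either arm, the different seeds show nothing about the likeness. miR-100-5p lies on the plus strand at chr9:41531437-41531458 and miR-3068-5p on the minus strand at chr12:87437724-87437747 of GRCm38.p6.
miR-100-5p: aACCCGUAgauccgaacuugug
miR-3068-5p: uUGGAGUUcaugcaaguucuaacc

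The ratio of the arms hardly moved while the level of both did. Each read of miR-22-5p was matched by 1202 reads of miR-22-3p before injury, 1154 a day later and 1097 in the day 3 library. As a share of both arms together, miR-22-5p made up 0.0831% before injury (95% interval 0.0790 to 0.0874), 0.0866% a day later (0.0805 to 0.0931) and 0.0911% in the day 3 library (0.0853 to 0.0973). All 3 intervals overlap. The change of miR-22-5p minus that of miR-22-3p was 0.06 on day 1 (-0.07 to 0.19), 0.13 on day 3 (0.01 to 0.25) and 0.07 from day 1 to day 3 (-0.07 to 0.22) on the log2 scale. The interval for day 3 against day 0 lay just above 0 by counting error alone. The number of miR-22-5p reads sets the width of these intervals.

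Other hairpins show how steady this is. The files list a 5p and a 3p arm under the same name for 358 hairpins, and by mean CPM over the libraries miR-22 was the first of them. miRNAs such as miR-1a and miR-26a, of which one arm is named by locus and the other is not, were left out. The rarer arm is the one with the lower CPM summed over the 3 libraries, so in a single library it can be the more abundant one. The 5 that came next were miR-126a, miR-206, miR-378a, miR-143 and miR-21a. The rarer arm of miR-126a, its 5p arm, held 2.68%, 3.77% and 2.36% of its hairpin's reads on days 0, 1 and 3. The 5p arm of miR-378a held 1.28%, 0.805% and 2.68%. The 3p arm of miR-21a, an miRNA induced by injury in many tissues, held 0.0851%, 1.73% and 0.190%. miR-21a thus had nearly the same share as miR-22 on day 0 and a very different one on day 1. The 5p arm of miR-143 held 0.00309%, 0.00977% and 0.000822% and rested on 9, 39 and 2 reads. The 5p arm of miR-206 had 0, 2 and 148 reads, and a count of 0 among its 105359 reads on day 0 allows up to 3 reads.

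Among the 142 other hairpins with at least 100 reads over both arms in each library, the rarer arm held a smaller share than that of miR-22 in 33, 23 and 28 of them by day. The median share was 1.38%, 1.73% and 2.36%. miR-22 was therefore more one-sided than the median hairpin without being at the limit. The distance from the median depended on the read minimum. With at least 1000 reads, 24, 17 and 22 of 76 hairpins held a smaller share, and the median was 0.406%, 0.724% and 0.969%. With at least 10 reads the median was 2.73%, 3.03% and 3.57%. Of the 142 hairpins, 121 had reads of both arms in every library. The arm ratio changed less than that of miR-22 in 7 of the 121 on day 1, in 8 on day 3 and in 9 from day 1 to day 3. The median size of the change over the 121 was 0.80, 1.01 and 0.84 on the log2 scale. Hairpins with few reads of the rarer arm vary more by counting alone. With at least 100 reads of each arm in every library, a filter chosen after the values were seen, 1, 4 and 3 of 31 hairpins changed less than miR-22, and the medians were 0.68, 0.57 and 0.62.

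**Figure D4:**
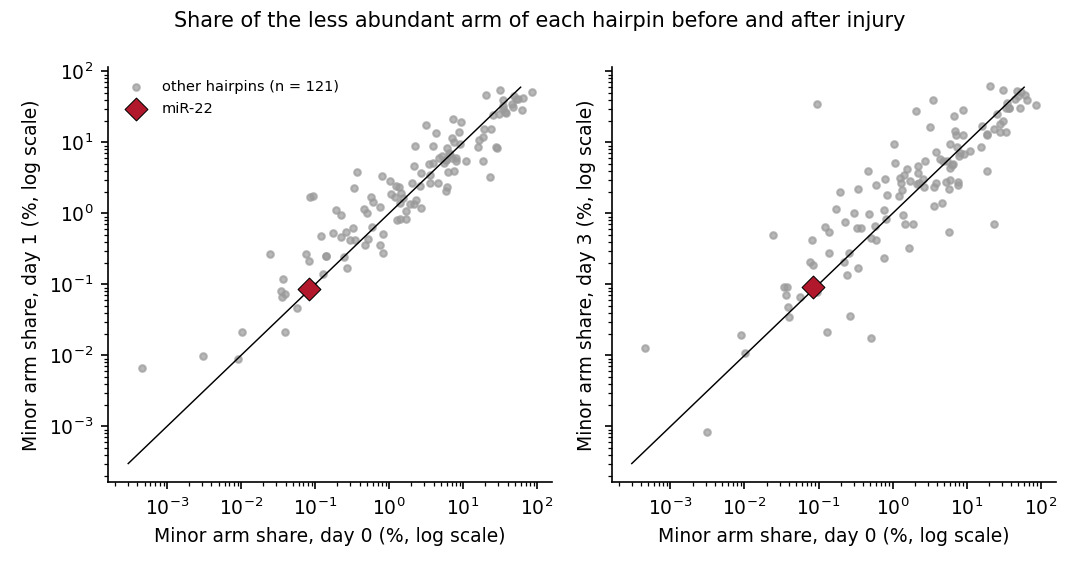
Share (%, log axes) of the rarer arm, by CPM summed over the 3 libraries, among all reads of its hairpin, with day 0 (x axis) against day 1 (left) and day 3 (right). Points are the 122 hairpins with at least 100 reads in each library and reads of both arms in every library, and the line marks equal shares. miR-22 (diamond) lies on the line, at 0.0831%, 0.0866% and 0.0911% by day, while many others lie off it.

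The muscle holds different cells before and after injury, and in bulk RNA fewer cells of a type cannot be told apart from less miRNA per cell. Marker miRNAs of these cells differed between the libraries too. The 7 muscle miRNAs together took 27.4% of the uninjured library, 9.17% of the day 1 library and 27.8% of the day 3 library, of which miR-206-3p alone gave 18.0% on day 3. The 7 leukocyte miRNAs held 0.549%, 2.15% and 1.00%, the 3 erythroid miRNAs 0.715%, 2.53% and 1.26%, and the 6 stromal and vascular miRNAs 9.48%, 19.5% and 8.89%. Single members can dominate such sums. On day 0, miR-150-5p had 4733 of the 5493 CPM of the leukocyte list, and miR-451a 7099 of the 7145 CPM of the erythroid list. Log2 changes within the leukocyte list ran from 0.77 to 6.32 on day 1 and from -0.57 to 5.02 on day 3. The 8 widely expressed miRNAs summed to 19.6%, 18.2% and 19.4%. On day 3, 2 of the 8 were at least 2-fold lower than on day 0 and 4 higher, beside 7.29% and 36.8% of all detected miRNAs. None of these 31 miRNAs had 0 reads in any library. Their part in the change of miR-22 was not tested.

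Within these lists, 6 of the 7 muscle miRNAs were at least 2-fold lower on day 1 and 4 on day 3, with a median log2 change of -1.37 and -1.41, the rare miR-208b-3p with its 4 and 1 reads being one of the 6. The day 3 list was split, since miR-206-3p (3.86) and miR-208b-3p (1.12) were at least 2-fold higher and miR-133b-3p was at 0.41. miR-22-3p, at -0.70 and -1.08, was less reduced than miR-1a-3p (-1.66 and -1.41), miR-133a-3p (-1.08 and -1.82), a myofiber miRNA made from the same transcripts as miR-1a, and miR-486a-5p (-1.26 and -1.46), which is found in muscle and red cells. miR-499-5p, from an intron of a slow myosin gene, was at -0.78 and -1.98. On day 1 it was thus close to miR-22-3p and on day 3 well below it. None of the 7 leukocyte, 6 stromal and vascular, or 3 erythroid miRNAs was 2-fold lower on either day, against 8.02% and 7.29% of all detected miRNAs, which for so few miRNAs is close to none. At least 2-fold higher were 5, 4 and 3 of them on day 1 and 5, 3 and 0 on day 3, beside 36.3% and 36.8% of all detected miRNAs. Of the 8 widely expressed miRNAs, 0 were 2-fold lower on day 1 and 2 on day 3, miR-378a-3p (-2.07) and miR-30a-5p (-1.76), while 2 on day 1 and 4 on day 3 were at least 2-fold higher, among them miR-21a-5p (2.31 and 3.77) and let-7b-5p (1.03 and 1.75). These counts hold for scaling to the library total and change with TMM factors, whose shift moves all miRNAs alike. On day 3 that shift of -0.93 puts miR-150-5p (-0.57), miR-143-3p (-0.47) and miR-145a-5p (-0.30) past 2-fold lower. On day 1 the shift of -0.94 leaves miR-214-3p (3.02) as the only stromal, vascular or erythroid miRNA at least 2-fold higher.

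The files also give each miRNA an expression value, a whole number that was never above the read count and whose making was not given in the sources used here. For miR-22-3p it was 160456 before injury, 154951 a day later and 155463 in the day 3 library. This value was nearly flat, 3.43% lower on day 1 than on day 0 where the reads were 53.7% lower. For miR-22-5p it was 1479, 713 and 885, close to its 1493, 720 and 894 reads. The expression value of miR-22-3p amounted to 8.94%, 18.6% and 15.9% of its reads, and that of miR-22-5p to between 98.99% and 99.1%. The expression value thus stood far below the reads for one arm and close to them for the other. The ranks by expression value were the same as by reads, 2, 1 and 2 for miR-22-3p and 95, 148 and 173 for miR-22-5p.

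miR-22-5p stood among miRNAs whose value was close to their reads. Among the 10 miRNAs nearest to miR-22-5p in reads, the expression value lay between 97.8% and 99.7% of the reads over the libraries. For the most abundant miRNAs the expression value flattened. Its highest value in each library was 160688 at 1987261 reads (miR-1a-3p, day 0), 154951 at 831027 reads (miR-22-3p itself, day 1) and 168191 at 1763128 reads (miR-206-3p, day 3). On day 1 miR-126a-3p, with nearly the same number of reads as miR-22-3p, had an expression value of 153484. The 10 miRNAs nearest to miR-22-3p in reads, which reach down to 100911, 128568 and 219650 reads on days 0, 1 and 3, had a median of 39.2%, 38.3% and 36.5%. On days 1 and 3 each of the 10 was above miR-22-3p, and on day 0 the lowest was at 8.09%. On day 3 miR-206-3p, not among the 10, had more reads than miR-22-3p and a smaller share of them as expression value. By expression value, the ratio of the arms was 108.5, then 217.3, then 175.7, against 1202, 1154 and 1097 by reads. By these values miR-22-5p made up 0.913%, 0.458% and 0.566% of both arms, so that the steadiness of the arm ratio holds for the reads and not for the expression values.

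**Figure D5:**
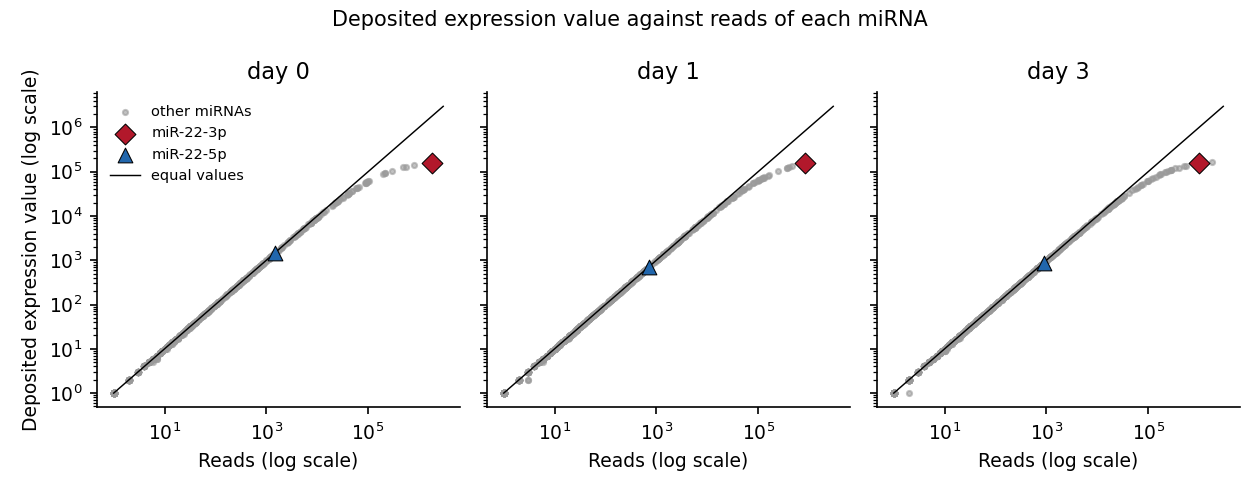
Deposited expression value against reads of each miRNA with at least 1 read in the libraries of days 0, 1 and 3, on log axes, with a line at equal values. miR-22-5p (triangle) lies on the line, with 1479 for 1493 reads on day 0. miR-22-3p (diamond) lies far below it, with 160456 for 1794852 reads on day 0, on a curve with the other abundant miRNAs.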

How the data were processed

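The authors pooled 4 samples per time point, sequenced the libraries on the BGISEQ platform and aligned the reads to GRCm38.p6. The submitters' processing notes name HISAT and Bowtie2, and the counting tool was not given in the sources used here. The deposited read counts per mature miRNA are whole numbers without normalization. The deposited expression values were treated as a score, since how the authors made them was not given.

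Reads were divided by the file total (6421056 to 9795076) to give CPM. Intervals are 95% Wilson intervals for levels and shares, and Wald intervals for ratios. PCR reads are not independent molecules, so they cover counting error only. For the background, 0 reads were set to a floor of 3 and all other counts were kept. miRNAs with at most 3 reads in both libraries were part of the total but could not be called. With 1 library per time point and members chosen on these reads, no test was made. The calculation was checked on simulated reads. TMM factors (edgeR 4.0.16) and median-of-ratios factors (DESeq2 1.42.0) in R 4.3.3, other totals, the expression values, subsampling, a pseudocount of 1 CPM and other read minimums were alternatives.

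The members and lists were chosen with earlier results of these data known. Named were both arms, the 5 most abundant miRNAs of each library, neighbours in rank, the 5 miRNAs nearest in pattern, the 5 hairpins nearest in level, and the lists. Python 3.11.15, scipy 1.17.1 and ViennaRNA 2.7.2 were used.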

Additional observations from a re-analysis of the deposited data

How the results depend on the processing

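Both arms were lower on days 1 and 3 than on day 0 under each of the 9 alternatives for the scaling, depth, pseudocount and values. The log2 changes below are for day 1 against day 0, day 3 against day 0 and day 3 against day 1. With TMM factors they were -1.65, -2.00 and -0.35 for miR-22-3p, and -1.59 and -1.87 for the first 2 comparisons of miR-22-5p. With median-of-ratios factors they were -1.75, -2.20 and -0.45, and -1.69 and -2.06. Leaving the 10 most abundant miRNAs out of the totals gave -1.32, -1.58 and -0.26, and -1.26 and -1.45. Leaving out both miR-22 arms gave -0.85, -1.27 and -0.42, and -0.79 and -1.13. With the expression values scaled to their total they were -0.27, -0.56 and -0.28 for miR-22-3p, and -1.28, -1.25 and 0.0223 for miR-22-5p. A pair of settings was added once these values were known. Totals without miR-206-3p gave -0.72, -0.81 and -0.0913 for miR-22-3p, and -0.67 and -0.0176 for the last pair of comparisons of miR-22-5p. The expression values without scaling gave -0.0504, -0.0456 and 0.00476 for miR-22-3p, and -1.05, -0.74 and 0.31 for miR-22-5p. The order of days 1 and 3 thus turned for miR-22-5p with both forms of the expression values, though by only 0.0223 when scaled. For miR-22-3p the expression values without scaling left days 1 and 3 level, at 0.00476. A scaling moves every miRNA by the same amount by construction. The cause of the difference between reads and expression values was not tested.

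By expression value, the share of miR-22-5p was 0.913%, 0.458% and 0.566%. The share of hairpins with a smaller rare arm than miR-22 was 31.6% on day 0 and 28.9% on day 3 with at least 1000 reads, and 13.8% on day 3 with at least 10 reads, against 23.2% and 19.7% with at least 100. The share with a smaller change of the arm ratio on day 3 was 12.9% with at least 100 reads of each arm, against 6.61%. The other 58 of 102 values stayed within the interval of the value reported, which for ranks is the span of ranks that the interval of the level allows and for positions a Wilson interval over the number of miRNAs or hairpins. With 1 library per time point no library could be left out, and no paired analysis was possible because each time point has a single library. The 720 to 1493 reads of miR-22-5p limit the precision of the arm ratio.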
